A study of Mus musculus with 6 samples.

Results

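The comparison described here set the heart of mice lacking the microRNA miR-214 (miR-214 KO) against the heart of wild-type (WT) mice at postnatal day 14 (P14). It rests on 2 of the 6 arrays of the series, which were chosen by their titles. Each array held material pooled from 3 mice, labelled with Cy3 and hybridised to an Illumina mouse bead array, and each group had 1 array. The mice of both groups were labelled male and of mixed strain background, and the labels do not say how the miR-214 allele was made. The other 4 arrays were WT and miR-214 KO heart from adult mice of 8 weeks and WT and miR-214 KO tibialis anterior, a shin muscle made mostly of fast fibres, of the same age. With 1 pooled array on each side there is no replicate check, so values are given without a test. A difference between the 2 arrays cannot be told apart from a difference between the 2 pools of mice.

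MicroRNAs are short RNAs that pair through their seed, a stretch near the 5′ end, with messenger RNAs and lower their translation and stability. The gene of miR-214 lies with that of miR-199a inside Dnm3os, a noncoding RNA transcribed from the opposite strand of the Dnm3 gene. In heart muscle miR-214 is known for limiting calcium overload after ischaemia, through the sodium and calcium exchanger Slc8a1, the calcium-dependent kinase Camk2d, the mitochondrial pore component Ppif and the cell death protein Bcl2l11 (Bim). P14 falls in the period in which the mouse heart matures from its neonatal to its adult state.

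The sequence that the knockout removes is shown first, with the neighbouring microRNA of the same precursor transcript, because its seed decides which messenger RNAs it can pair with. Sequences are from RefSeq on GRCm38.p6, 5′ to 3′, and capitals mark the seed (bases 2 to 8). The 2 arms of miR-214 lie at chr1:162223438-162223459 (3p) and chr1:162223397-162223418 (5p), and those of miR-199a at chr1:162217883-162217904 (3p) and chr1:162217844-162217866 (5p), all on the plus strand.
mmu-miR-214-3p: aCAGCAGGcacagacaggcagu
mmu-miR-214-5p: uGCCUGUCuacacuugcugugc
mmu-miR-199a-3p: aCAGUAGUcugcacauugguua
mmu-miR-199a-5p: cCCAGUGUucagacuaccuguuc
The seed of miR-214-3p is shared by 1 other mouse microRNA in the RefSeq table, mmu-miR-761, and differs from the seeds of both miR-199a arms. No probe in the annotation used here is assigned to miR-214 or miR-199a, so the genotype label could not be checked on the microRNA itself.

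The rule kept 18642 of 45281 probes (41.2%), those with a detection p under 0.01 on WT, KO or both. Of the probes kept, 16603 were detected on both arrays, 1376 on the WT array only and 663 on the KO array only. They gave 10163 named genes, each represented by its brightest probe. Signals below are scanner intensities in arbitrary units with the standard error over the beads of that probe. Differences are KO minus WT after background correction and quantile normalization, on the log2 scale. The KO array was brighter as a whole, with a median KO over WT scanner ratio of 1.08 over genes detected on both arrays, so a normalized difference can be smaller than the ratio of 2 signals. For dim genes background correction works the other way, and a fold or its bound can exceed the ratio of the scanner signals. Bead errors cover the reading of 1 array and leave out the spread between mice. Cardiac markers were bright on both arrays. The adult cardiac myosin Myh6 gave 35055 on the WT and 29768 on the KO array, the cardiac actin Actc1 33469 and 30814, and the atrial peptide Nppa 21699 and 21336.

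The labels call both pools male, and the sex-linked genes differed from that label on both arrays. Xist, the RNA that coats the inactive X chromosome in female cells, gave 1707 on the WT and 1882 on the KO array. Y-linked Eif2s3y gave 349 ± 14.9 on the WT array and 53.4 ± 2.97, not detected, on the KO array, and was at least 9.64-fold lower there. The Y-linked genes Kdm5d and Uty were likewise detected on the WT array only, near the detection limit, and Usp9y on neither. The sex of the mice in the pools and the genotype cannot be told apart for any difference between the 2 arrays. Without genes of the X and Y chromosomes the counts given next were 23 higher and 62 lower.

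Most genes had close values on the 2 arrays. The difference lay between -0.71 and 0.64 for 95% of the 10163 genes, 86.9% lay within 0.5 of 0, and the median bead standard error of a difference was 0.10. In the KO heart 24 genes (0.236% of those compared) reached 2-fold above WT and 64 (0.63%) reached 2-fold below it, and these are called higher and lower in what follows. A gene seen on 1 array only has a lower bound as its fold, and by such bounds 21 genes (0.207%) were higher and 54 (0.531%) lower. Of the 24 higher genes, 19 were detected on both arrays and 5 on the KO array only. Of the 64 lower genes, 45 were detected on both arrays and 19 on the WT array only. In 12 of the higher and 26 of the lower genes the 95% bead interval lay wholly beyond 2-fold. The genes nearest the threshold were Scd4 (1.01) and R3hdm2 (-1.01) just inside it, and Jund (0.999) and Xpnpep2 (-0.9995) just outside. The highest genes belonged to fast skeletal muscle contraction and to fat metabolism, and the lowest were of mixed roles.

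**Figure D1:**
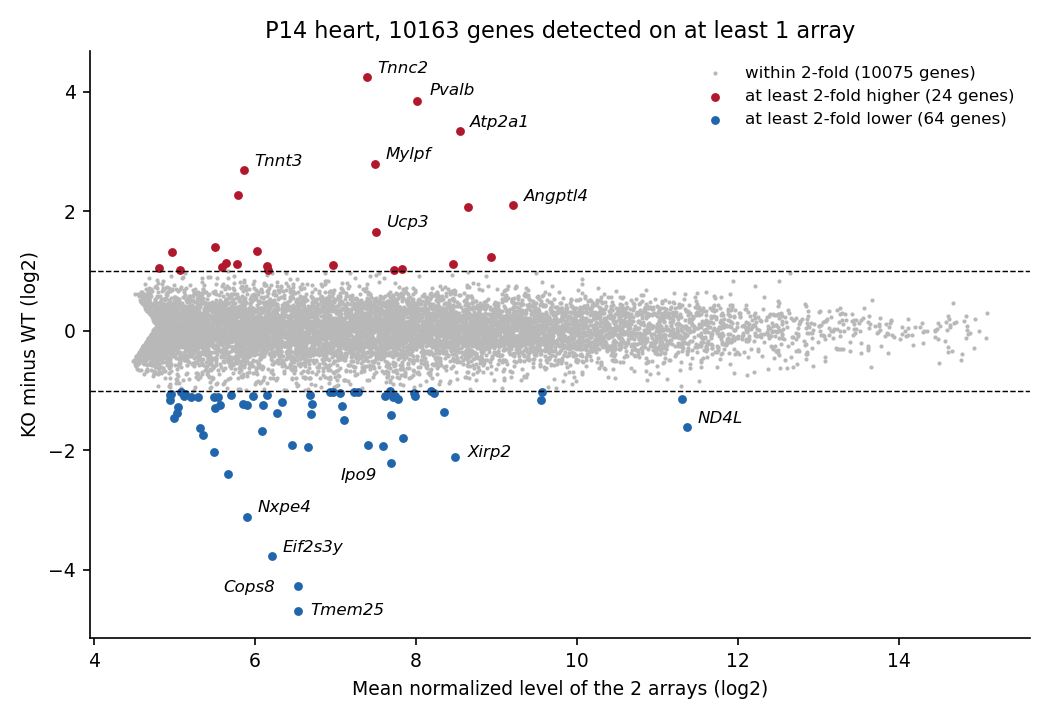
KO minus WT difference (log2) against the mean normalized level of both arrays (log2) for the 10163 genes detected on at least 1 P14 heart array. Each point is 1 gene, dashed lines mark 2-fold, and the 24 higher genes (red) and 64 lower genes (blue) lie outside a band that holds the other genes at every level.

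Genes for the contractile and calcium machinery of fast skeletal fibres made up 9 of the 24 higher genes. Of 19 such genes on the array 17 were detected, and 14 of them were above 0 in the KO heart (50.1% of all compared genes were). Apart from the 10 detected on both arrays, the members were seen on the KO array only, so the filter fixed their sign. At least 2-fold higher were 9 of the 17 (background 0.236%), 8 of them also by lower bounds (background 0.207%). The median difference of the 17 was 1.04, or 0.68 with undetected values raised to the detection limit, beside 0.00 over all compared genes. It was 0.64 without background correction, with an offset of 50 and with the authors' deposited processed values, and 1.74 over the 10 members detected on both arrays. Their summed scanner signal was 3499 on the WT and 9554 on the KO array.

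Among the thin filament genes, Tnnc2, the calcium-binding troponin C of fast fibres, gave 79.5 ± 4.76 on the WT array and 956 ± 34.8 on the KO array, a difference of 4.24 ± 0.15 (bead standard error), the highest of all genes compared. Tnni2, the inhibitory subunit of fast troponin, gave 263 ± 12.1 and 1055 on the same arrays, a difference of 2.08. Tnnt3, which anchors fast troponin to tropomyosin, was read only on the KO array, at 224 ± 16.1 against 58.1 ± 3.09, and was at least 5.56-fold higher. All 3 subunits of the fast troponin complex were therefore brighter on the KO array, and none of their bead errors overlapped.

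Calcium handling genes of fast fibres were mixed. Pvalb encodes parvalbumin, a cytosolic calcium buffer of fast fibres, and gave 116 ± 5.11 on the WT and 1246 ± 28.9 on the KO array (difference 3.84 ± 0.09). Atp2a1 encodes SERCA1, the calcium pump of the fast sarcoplasmic reticulum, and gave 174 ± 7.04 and 1519.8 ± 35.3 (3.33 ± 0.08). The fast calsequestrin Casq1 was not higher, with 258 on the WT and 216 on the KO array and a difference of -0.42. The skeletal calcium release channel Ryr1 was detected on the KO array only and was at least 1.46-fold higher.

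Of the thick filament and Z-disc genes, Mylpf, the regulatory light chain of fast myosin, gave 116.5 ± 4.49 on the WT and 633 ± 15.2 on the KO array (2.80 ± 0.09), and its other probe 109 and 411 (2.26). Actn3, the fast fibre actinin, gave 61.6 and 189.5 on these arrays and was at least 4.58-fold higher, and its other probes differed by 0.53 and 1.53. The heavy chain Myh1 was just visible on the KO array, at 84.6 against 51.0, with a bound of 1.52-fold. Myl1, a myosin light chain, was bright on both arrays at 1257 and 2225 and differed by 0.66. It was also bright in the adult heart, at 4251 on the WT and 1510 on the KO array. Mybpc2 (-0.30), the fast myosin binding protein C, and Tmod4 (-0.03), a thin filament capping protein, were not higher. Ampd1, the AMP deaminase of skeletal muscle, gave 65.3 and 129 (1.41), and its other probe differed by 0.83.

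These levels remained far below those of skeletal muscle. The P14 KO signal of the 9 higher genes was between 0.597% (Actn3) and 5.26% (Pvalb) of the WT tibialis anterior signal of the same probe. A wider set of genes of that muscle, chosen after the values were seen, was taken from the adult WT arrays so that its fold used no P14 value. Of 140 genes at least 8-fold brighter in WT tibialis anterior than in WT adult heart, 87 were detected at P14. Of these 87 genes 60.9% were above 0 (background 50.1%), 11 or 12.6% were among the higher genes (background 0.236%) and 0 among the lower, with a median of 0.08. Of these 11 genes 9 were those of the fast fibre list. Among 14 genes of myogenic factors and the nerve endplate, 3 were detected (Chrnb1, Rapsn and Des), all on both arrays. The defining factors Myod1, Myog, Myf5, Myf6 and Pax7 and the receptor subunit Chrna1 were detected on neither array. In the tibialis anterior pair itself 9 of the 14 were detected, beside 3 at P14. What a lack of detection at P14 says about the amount of muscle was not tested. Whether skeletal muscle in the KO pool had a part in these values was not tested. In bulk tissue, fewer cells of a type and less RNA per cell cannot be told apart, for these genes and all others below.

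In the adult heart pair, Atp2a1 (3.88), Tnni2 (3.09) and Mylpf (2.47) were again higher in KO. Tnnc2, Tnnt3, Actn3, Ampd1 and Myh1 were detected on neither adult heart array, and Myl1 was lower there (-1.61). Within tibialis anterior itself the KO minus WT differences of the listed genes had a median of -0.05.

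**Figure D2:**
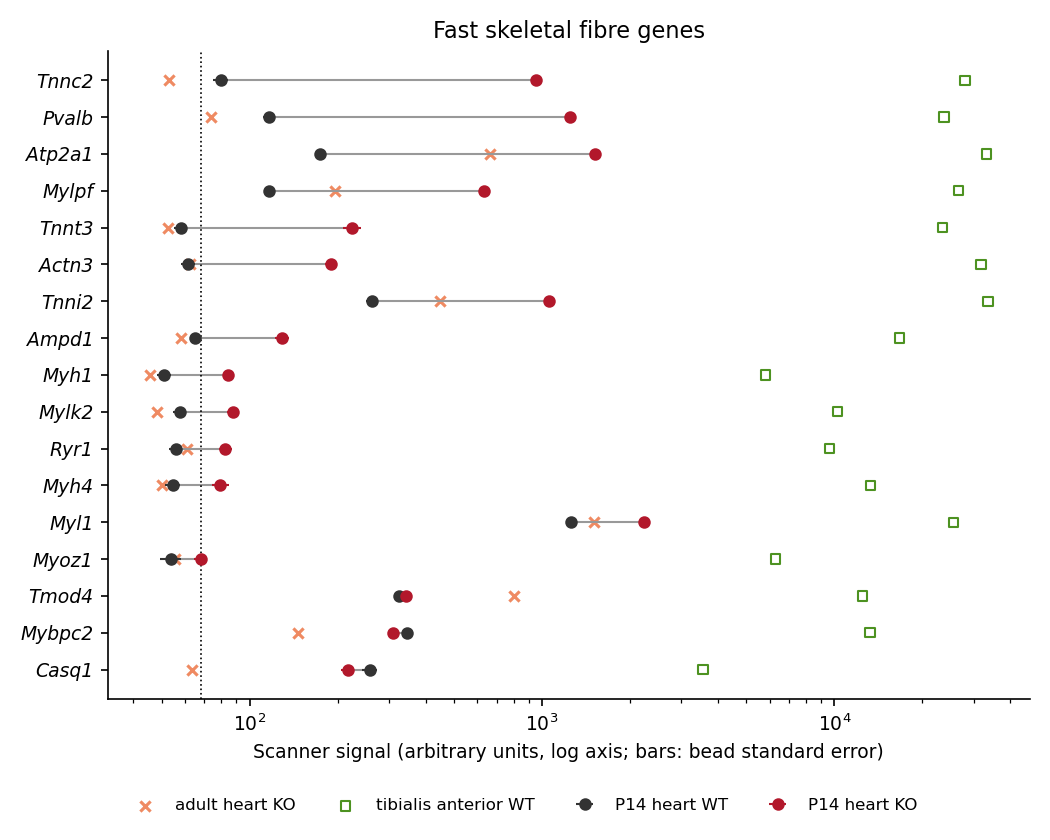
Scanner signal on a log axis of the 17 detected fast fibre genes on the P14 heart WT (black) and KO (red) arrays, with bead standard errors as bars, beside the adult heart KO (crosses) and tibialis anterior WT (open squares) arrays. The dotted line is the lowest detected signal of the P14 KO array (68.0). The KO points lie right of the WT points for 15 of the 17 genes in scanner signal, and every P14 point lies well left of its tibialis anterior square. For genes detected on the KO array only, the detection filter fixed this order.

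Promoters of the 4 genes with the largest differences on both arrays are shown because they differed together. They cover the 250 bases before the RefSeq start on GRCm38.p6, in the direction of the gene, at chr2:164779735-164779984 (Tnnc2, minus strand), chr15:78206401-78206650 (Pvalb, minus, the upstream of 2 starts), chr7:126463074-126463323 (Atp2a1, minus) and chr7:127211358-127211607 (Mylpf, plus). Capitals mark E-boxes (CANNTG, the site of myogenic and other helix-loop-helix factors, the same on both strands) and, in Pvalb, a match to the MEF2 motif.
Tnnc2: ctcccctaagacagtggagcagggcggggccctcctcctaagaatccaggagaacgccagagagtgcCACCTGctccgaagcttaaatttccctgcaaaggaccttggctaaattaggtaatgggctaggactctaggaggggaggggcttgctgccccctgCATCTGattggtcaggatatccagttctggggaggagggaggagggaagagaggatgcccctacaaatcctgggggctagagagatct
Pvalb: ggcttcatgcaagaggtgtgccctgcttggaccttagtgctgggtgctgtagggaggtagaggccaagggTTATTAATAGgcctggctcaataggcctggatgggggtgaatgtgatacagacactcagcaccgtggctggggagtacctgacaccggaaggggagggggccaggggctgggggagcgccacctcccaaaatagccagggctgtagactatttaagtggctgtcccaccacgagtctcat
Atp2a1: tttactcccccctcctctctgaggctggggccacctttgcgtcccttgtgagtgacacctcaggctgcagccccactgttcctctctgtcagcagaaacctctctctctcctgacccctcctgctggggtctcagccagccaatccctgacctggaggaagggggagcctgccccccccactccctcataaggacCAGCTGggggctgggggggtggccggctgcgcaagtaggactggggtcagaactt
Mylpf: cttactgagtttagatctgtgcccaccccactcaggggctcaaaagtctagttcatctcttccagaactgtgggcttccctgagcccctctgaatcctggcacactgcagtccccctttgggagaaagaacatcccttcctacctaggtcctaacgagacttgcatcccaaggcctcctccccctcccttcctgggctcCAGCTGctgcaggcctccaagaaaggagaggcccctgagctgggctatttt
An E-box was present in 9 of the 12 promoters matched for 11 fast fibre genes (75%), beside 66.2% of 32851 mouse promoters of the same length. A MEF2 match was present in 3 of the 12 (25%; Pvalb, Myh1 and Myh4), beside 2.92% of all. A match is a description of these letters and was not tested as a site.

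Genes of fat metabolism came next among the higher genes. Angptl4, a secreted inhibitor of lipoprotein lipase and a target of the PPAR nuclear receptors, gave 365 ± 11.8 on the WT and 1572 ± 40.5 on the KO array (2.10 ± 0.07). Ucp3, a mitochondrial carrier induced by fatty acids, gave 155 ± 9.68 and 439.7 ± 14.96 (1.66 ± 0.13), and its other probe 80.8 and 284 (2.32). Both were also at least 2-fold higher in KO in the adult heart (1.27 and 1.47).

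The rest of the PPAR-driven list did not follow these 2 genes as a group. Of 28 detected members 17 were above 0 (background 50.1%), 2 were at least 2-fold higher (background 0.236%), and the median was 0.11. Short of 2-fold, Hadha, the long-chain hydroxyacyl dehydrogenase subunit, differed by 0.91 (184 and 334), while its partner subunit Hadhb differed by -0.56 (8548 and 6738). Pdk4, the kinase that turns off pyruvate dehydrogenase, gave 4623 and 9512 (0.83), and the acyl thioesterase Acot1 gave 941 and 1773 (0.78). The receptors themselves, Ppara (0.11), Ppard (0.06) and Pparg (-0.03), were near 0.

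Metallothionein and glucocorticoid-responsive genes stood mostly above 0, with none at 2-fold. Of 13 detected members 11 were above 0 (background 50.1%), and the median was 0.40, with a range over the alternative settings of 0.29 to 0.49. Mt1, a zinc-binding metallothionein, gave 4878 ± 108 on the WT and 10902 ± 301 on the KO array (0.97). Ddit4, an inhibitor of mTOR signalling, gave 624 and 1290 (0.96, scanner value 1289.5), and Cdkn1a, the cell cycle inhibitor p21, gave 917 and 1819 (0.86; mean of 2 other probes 0.79). Fkbp5, a cochaperone induced by glucocorticoids, gave 108 and 142 (0.44). Sgk1 (-0.10) and Errfi1 (-0.06), also responsive to these hormones, were not higher. The same list had medians of 0.66 in the adult heart and 0.44 in tibialis anterior.

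Further genes above 2-fold had varied roles. Calr, the calcium-binding chaperone calreticulin of the endoplasmic reticulum, gave 399 ± 13.01 on the WT and 974 ± 30.4 on the KO array (1.24). Ptms, the small acidic nuclear protein parathymosin, gave 313 and 687 (1.12; other probe 1.05). Car3, a carbonic anhydrase of fat and slow muscle, gave 82.7 and 167 (1.33). Nabp2 (1.09; other probe 0.93), a single-stranded DNA binding protein, and Tesmin (1.09; other probe 1.11) were each read by a second probe with a like value. Lad1 (1.13) and 6430590A07Rik (1.11) rest on 1 probe each. The neutrophil markers S100a8 (162 and 271, 0.79), S100a9 (0.59), Ltf (72.6 and 101, 0.65) and Lcn2 (0.57) were all above 0 (background 50.1%), with a median of 0.62. Lcn2 was detected on the KO array only, at 82.9 against 63.1, so the filter fixed its sign. The median was 0.36 without background correction and 0.33 over all 9 markers without a filter. Of these, 5 further markers were not detected on either array. Car3 stood alone among 6 detected white adipocyte markers, of which Adipoq differed by 0.42 and the list by a median of 0.22.

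The heart's own muscle genes showed little difference as a group. Of 18 detected cardiomyocyte structure genes 7 were above 0 and 0 passed 2-fold, with a median of -0.11. Myh6 (-0.13), Tnni3 (-0.10), Actc1 (0.01) and Actn2 (0.09) were near 0. The widest differences were Pln, the phospholamban brake on the cardiac calcium pump (5941 ± 135 on the WT and 4140.4 ± 125 on the KO array, -0.74), and Hand2, a cardiac transcription factor (136 and 224, 0.79). Ryr2, the cardiac calcium release channel, differed by -0.63 on its brightest probe (7658 and 5663), but its 3 other probes had a mean of 0.03. Myom1 (-0.60; other probe -0.29), of the sarcomeric M band, and the cardiac factor Nkx2-5 (0.53) followed.

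On their brightest probes, all detected chamber, conduction and calcium cycling genes stayed within 2-fold. A dimmer probe of the conduction gene Cacnb2, named for this probe, gave 411 on the WT and 220 on the KO array (-1.18). The brightest Cacnb2 probe differed by -0.06 and the others by -0.46 and -0.39. The 10 atrial genes had a median of -0.20 and the 7 ventricular genes of -0.06. Kcne1, a potassium channel subunit, was the most different ventricular gene, at 3861 and 7498 (0.74; mean of 3 other probes 0.43), and was also higher in the adult KO heart (1.44). Of 18 conduction genes 7 were above 0, and the median was -0.12 (0.01 with median centring). Kcnd2, a subunit of the transient outward potassium channel, gave 641 and 420 (-0.80, scanner value 419.8; other probe -0.50). Gja1, the main ventricular gap junction protein connexin 43, gave 15668 and 12178 (-0.61), and -0.72 in the adult pair. The 21 calcium cycling genes had a median of 0.05, which turned to -0.05 with the mean over all detected probes of a gene.

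Among fetal and stress genes of the heart 2 were lower and none was higher. Of 15 detected members 6 were above 0 (background 50.1%) and 2 were at least 2-fold lower (background 0.63%). The median was -0.20, and it was -0.04 with median centring and -0.33 with the mean over the detected probes of a gene. Xirp2, which binds actin at intercalated discs and Z-discs, gave 864 ± 22.0 on the WT and 255 ± 8.09 on the KO array (-2.11 ± 0.07), and 0.03 in the adult heart pair. Atf3, a stress-induced transcription factor, gave 182 ± 7.46 and 95 ± 3.62 (-1.37). Hamp, the iron hormone hepcidin, differed by -0.89 and the natriuretic peptide Nppb by -0.46 (6866 and 5744). Tnni1, the slow troponin I isoform of the young heart, differed by 0.96 (97.9 and 168). Myh7 (-0.45), the slow myosin heavy chain, and Nppa (-0.20) were within 2-fold.

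**Figure D3:**
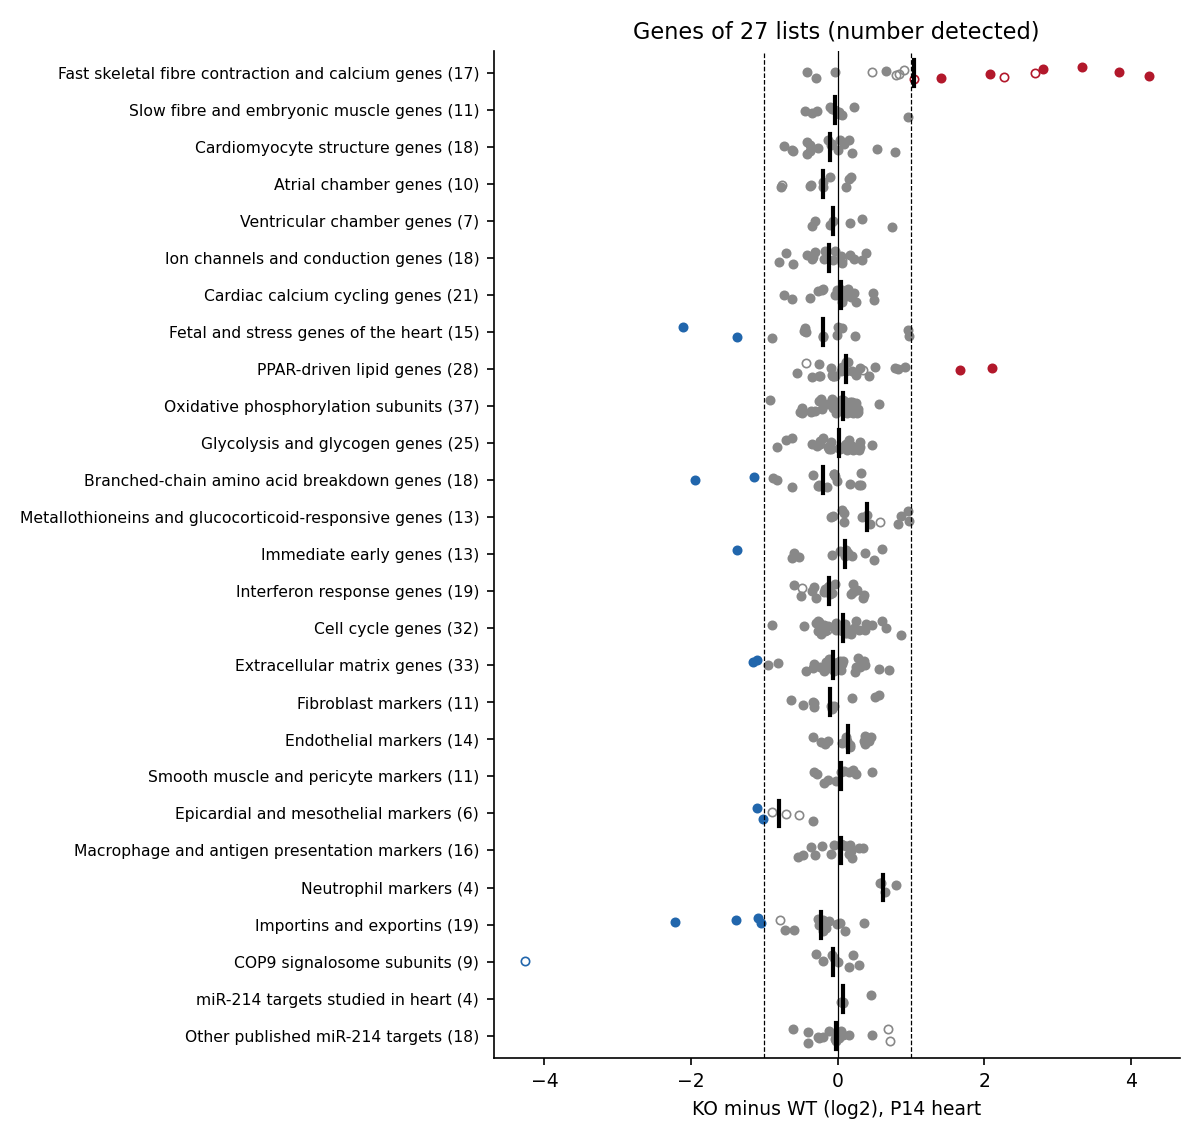
KO minus WT difference (log2) in P14 heart of the detected genes of 27 lists, with the number detected in brackets. Filled points were detected on both arrays, open points on 1 array, black bars are list medians and dashed lines mark 2-fold. The fast fibre list reaches 4.24 and has a median of 1.04. The 6 detected epicardial genes lie below 0, and 3 of them were seen on both arrays.

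Epicardial and mesothelial markers, which label the outer lining of the heart, were all below 0 where detected (50.1% of all compared genes were above 0). Upk3b, Upk1b and Aldh1a2, the 3 seen on both arrays, had a median of -1.03. Msln, Dmkn and Lrrn4 passed the filter through the WT array only, which by itself favours values below 0. These were 6 of 8 members on the array, 2 of them at least 2-fold lower (background 0.63%). The median was -0.80, or -0.63 when undetected values were raised to the limit. Across the alternative settings this median lay between -1.03 and -0.39. Upk3b, a uroplakin of mesothelium, gave 244 ± 10.6 on the WT and 147 ± 6.71 on the KO array (-1.03), and its other probes differed by -1.21 and -0.86. Upk1b, of the same family, gave 113 and 71.6 (-1.10). Msln (mesothelin) gave 87.9 against 67.3 and Dmkn 83.7 against 59.1, detected on WT only with bounds of 1.61-fold and 1.48-fold. The other Dmkn probe, detected on both arrays, gave 69.4 on the WT and 70.2 on the KO array (-0.05). The epicardial factor Tbx18 and Krt19 were detected on neither array, and Aldh1a2, which makes retinoic acid, differed by -0.33. All 6 signals were low, beside a lowest detected signal of 63.4 on the WT array. The adult heart pair had a median of -0.52 over 7 detected members.

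Nuclear transport receptors also stood mostly below 0. Of 19 detected importins and exportins 3 were above 0 and 4 were at least 2-fold lower (background 0.63%), and the median was -0.23. Ipo9, an importin of histones and ribosomal proteins, gave 540.1 ± 16.2 on the WT and 157 ± 6.60 on the KO array (-2.22 ± 0.09). Importin alpha members Kpna3 (232 and 116, -1.39) and Kpna2 (259 and 153, -1.04) and importin beta Kpnb1 (458 and 257, -1.08) were the other 3. Ipo9 was lower also in the adult heart (-2.59) and tibialis anterior (-1.84), and Kpna3 and Kpnb1 were within 0.22 of 0 in both. The exportin of importin alpha, Cse1l, differed by -0.72, and the importins Ipo5 (-0.23), Ipo7 (-0.25) and Ipo8 (-0.21) were closer to 0.

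Branched-chain amino acid breakdown genes were mostly below 0. Of 18 detected genes 4 were above 0 (background 50.1%) and 2 were at least 2-fold lower (background 0.63%), with a median of -0.20. Bckdhb, the beta subunit of the branched-chain ketoacid dehydrogenase, gave 267 ± 22.1 on the WT and 99.9 ± 7.21 on the KO array (-1.94 ± 0.21). Dld, the dehydrogenase subunit that this complex shares with pyruvate dehydrogenase, gave 408 and 223 (-1.14). Acadsb (-0.89), Mccc1 (-0.83) and Aldh6a1 (-0.63), enzymes of later steps, followed. In the adult heart Bckdhb differed by -0.19 and Dld by 0.09.

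The lower genes outside these lists had varied roles. Me1, the cytosolic malic enzyme that supplies NADPH for fat synthesis, gave 172 ± 6.69 on the WT array and was not detected on the KO array (58.2 ± 3.35), a bound of 4.09-fold. Nxpe4 gave 241 and 54.1, with a bound of 6.20-fold. Srpr, the receptor for the signal recognition particle, gave 414 and 146 (-1.92), and ND4L, a mitochondrially encoded subunit of complex I, 4892 ± 262 and 1892 ± 102 (-1.61). The zinc finger genes Zfp160 (-1.91), Zfp367 (-1.68; other probe -0.47) and Zfp933 (-1.29; mean of 2 other probes -0.26) and Zfp52 (bound 2.48-fold) are in this set. So are Ttc27 (629 and 291, -1.35), Lrrc57 (303 and 140, -1.49, KO scanner value 140.1) and Rsph3a (424 and 196, -1.41). Of nuclear-encoded oxidative phosphorylation subunits 37 were detected, with a median of 0.07 and none at 2-fold. Atp5a1 was the lowest of them on its brightest probe (-0.92) and 0.34 on its other.

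Collagens show how much the probe matters. Col3a1, a fibrillar collagen, gave 1239 ± 41.2 on the WT and 665 ± 22.9 on the KO array (-1.15), but its other probe differed by -0.30. Col8a1, a short-chain collagen, gave 393 and 221 (-1.10), and its other probe differed by -0.06. Col1a1 differed by 0.56 in the other direction. The 33 detected matrix genes had a median of -0.06, which turned to 0.09 with median centring, and 13 were above 0. Fibroblast (median -0.10, and 0.01 with median centring), endothelial (0.14, and 0.28 with median centring) and smooth muscle (0.04) markers had no member past 2-fold.

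Chromosome 1, which carries the Dnm3 gene and miR-214, held 14 of the 64 lower genes (21.9%) and 5.32% of the genes compared. Of its 541 compared genes 2.59% were lower, beside 0.52% of the 9622 others. The next highest autosomes were chromosome 9, with 8 lower of 585 (1.37%), and chromosome 17, with 6 of 507 (1.18%). Cops8, a subunit of the COP9 signalosome that removes NEDD8 from ubiquitin ligases, gave 499 ± 26.7 on the WT array and 56.3 ± 3.27, not detected, on the KO array, a bound of 14.4-fold. The other 8 subunits of that complex differed by -0.30 to 0.28. Besides Ipo9, the set includes Thap4 (463 and 161, -1.93), the Ral regulator Rgl1 (521 and 192, -1.79), Lgr6, a receptor of R-spondins (142 and 58.6, bound 3.21-fold; other probe -1.70), and Rpe, the ribulose phosphate epimerase of the pentose phosphate route (124 and 58.9, bound 2.65-fold). Atf3 and Col3a1 also lie there. All 14 were detected in the adult heart pair, 13 were below 0 and 8 were at least 2-fold lower again, with a median of -1.81. Of the 49 lower genes of other chromosomes that were detected there, 33 were below 0 and 1 was at least 2-fold lower, with a median of -0.25. In tibialis anterior 9 of the 14 chromosome 1 genes were detected, 6 were below 0 and at least 2-fold lower, and Atf3 was at 2.24. On a signed count of coding genes from Dnm3, the 14 lay between -842 (Cspp1) and 287 (Atf3), with Rgl1 nearest at -73. Without chromosome 1 the counts at P14 were 23 higher and 50 lower. Whether alleles linked to the knockout had a part was not tested.

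The miR-214 targets studied in heart stayed within 2-fold. Bcl2l11, the cell death protein Bim, gave 215 ± 7.24 on the WT and 298 ± 10.1 on the KO array (0.45 ± 0.08), and its other probe differed by 0.51. Slc8a1 gave 2063 ± 68.8 and 2460 (0.08 ± 0.07, scanner value 2459.9), with 2 dim other probes at -0.48 and -0.22. Camk2d gave 484 ± 19.5 and 556 ± 17.8 (0.07 ± 0.08), while its 6 other probes ran from -0.62 to 0.60 with a mean of -0.23. Ppif, the mitochondrial cyclophilin, gave 7152 and 8511 (0.04 ± 0.05). Bcl2l11 was the 1 gene of these 4 whose probes all lay above 0 by more than their bead errors. Passing the bead error was common, as the 95% bead interval excluded 0 in 52.8% of all compared genes. Among 18 other published targets 7 were above 0 with a median of -0.03 (0.08 with median centring), and none passed 2-fold. The highest were Twist1 (bound 1.504-fold) and Fgfr1 (bound 1.49-fold), both detected on the KO array only, and Ing4 (0.47). Beta-catenin Ctnnb1 (-0.61; mean of 3 other probes 0.01) and Mef2c (-0.40; mean of 3 other probes -0.33) were the lowest named here.

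At the host locus, Dnm3 was detected on neither array, and Dnm3os, the precursor RNA of miR-214 and miR-199a, gave 138 ± 5.24 on the WT and 139 ± 4.75 on the KO array (-0.09; other probe 0.05). Of 7 detected genes of the locus 4 were above 0 and none passed 2-fold. The neighbours Pigc (0.07), Vamp4 (-0.24) and Suco (-0.21) were close to 0, and Fmo1, a flavin monooxygenase, gave 1063 and 1375 (0.20). Eef1aknmt, a methyltransferase of an elongation factor, gave 106 and 141 (0.47; other probe 0.14). Prrc2c differed by 0.84 on its brightest probe and by -0.21 in the mean of 3 others.

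Second probes give a check within the same 2 pools. Of the 24 higher genes 10 had another detected probe, and its mean lay in the same direction for 10 of them and past 2-fold for 5, with a median of 0.98. Of the 64 lower genes 13 had another detected probe, in the same direction for 11 and past 2-fold for 2, with a median of -0.30. The remaining 14 higher and 51 lower genes rest on 1 probe. Tmem25 had the lowest difference of all genes, with 571 ± 17.7 on the WT array and 45.9 ± 2.44 on the KO array and a bound of 16.7-fold. Its 2 other probes differed by -0.14 and 0.55, so this value belongs to 1 probe. Among compared genes with another detected probe the sign was shared in 65.4%.

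**Figure D4:**
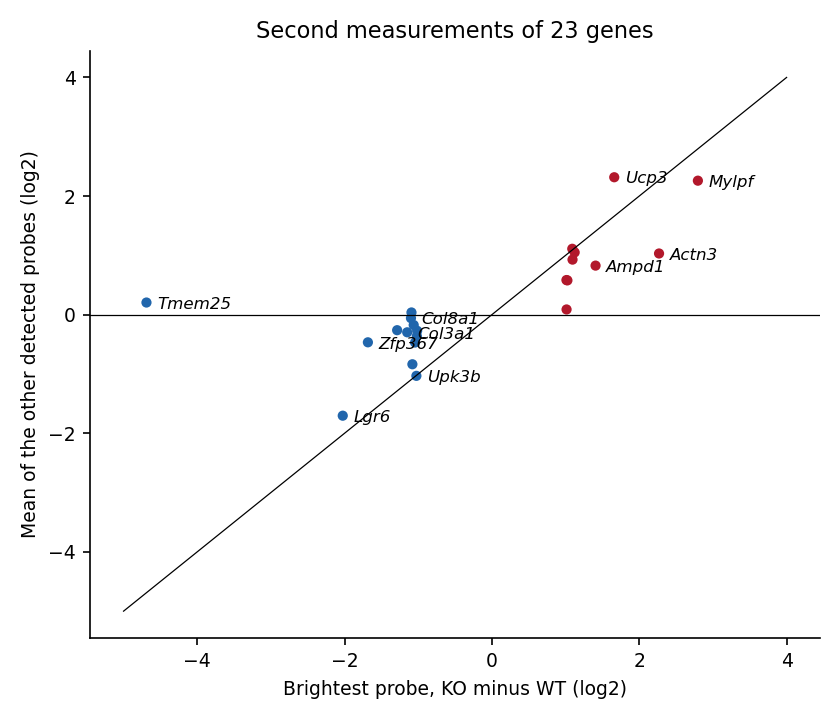
Mean KO minus WT difference (log2) of the other detected probes against that of the brightest probe, for the 23 genes past 2-fold at P14 with more than 1 detected probe. The diagonal marks equal values. Higher genes (red) all lie above 0, while most lower genes (blue) lie between the diagonal and 0, with Tmem25 far from the diagonal.

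The adult arrays come from other pools of mice on the same chip and share no array with the P14 pair. Y-linked Eif2s3y, detected on the P14 WT array, was detected on neither adult heart array and on neither tibialis anterior array. The sex of those pools was not tested. Of the 24 genes higher at P14, 19 were detected in the adult heart pair, 16 were above 0 and 6 were at least 2-fold higher, with a median of 0.82. These 6 are 25% of the P14 set and 4.69% of the 128 genes (1.27%) higher in adult KO heart. Of the 64 lower genes 63 were detected there, 46 were below 0 and 9 were at least 2-fold lower, with a median of -0.34. These 9 are 14.1% of the P14 set and 17.3% of the 52 genes (0.516%) lower in adult KO heart. The share of all adult heart genes above 0 is not given here, so the counts of signs have no background beside them. In tibialis anterior, where 2.48% of genes were higher and 0.472% lower in KO, 1 of the P14 higher and 7 of the P14 lower genes passed 2-fold in the same direction, with medians of 0.01 and 0.06. The difference between the pairs was not tested.

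**Figure D5:**
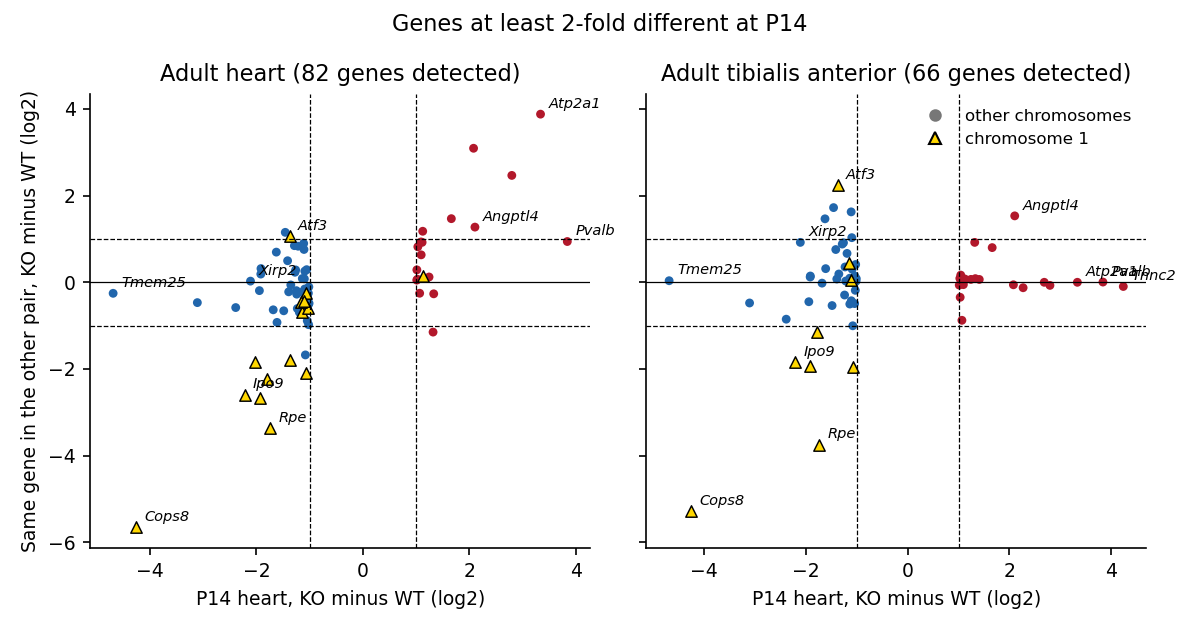
KO minus WT difference (log2) in adult heart (left, 82 genes) and tibialis anterior (right, 66 genes) against the P14 difference, for genes past 2-fold at P14 that were detected in that pair. Triangles are genes of chromosome 1 and dashed lines mark 2-fold. Chromosome 1 genes such as Cops8 and Ipo9 lie low in both panels, and Atf3 of that chromosome lies above 0 in both. Xirp2 and Tmem25 lie near 0 in the adult heart.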

How the data were processed

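Total RNA was labelled with Cy3, per the labels' protocols. The deposited scanner file holds, per the file headers, each probe's mean bead intensity, its standard error, the number of beads and a detection p-value, neither background-subtracted nor normalized. The authors also deposited processed intensity values, which keep each array's rank order and differ by at most 0.343% from the average over 6 arrays of signals at equal rank. Quantile normalization of the unlogged signals gives values of this form. No source used here names the genome build of the array's annotation. Of the columns of values, 0 were left over.

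Background was corrected with normexp in limma 3.58.1 (R 4.3.3), using an offset of 16 and negative controls inferred from detection p-values. Quantile normalization over 6 arrays and log2 came next. The steps were tested on simulated data with known folds set only in probes well above background, so that test does not cover dim genes. Tables were made in Python 3.11.15 with pandas 2.3.3 and numpy 2.4.6, and figures with matplotlib 3.10.9. Of the probes, 34885 carry 1 symbol in the annotation, 18 carry several, and the 10378 not listed stay unnamed. Chromosomes come from a RefSeq gene table of GRCm38.p6, which changed 0 symbols. A gene is its brightest probe over the 6 arrays, kept when detected at p under 0.01 on at least 1 P14 array. For a gene detected on 1 array the fold is a bound, computed against the dim array's own value or its lowest detected signal, whichever is larger. The bead standard error was carried through each array's map from scanner to normalized values. Each probe was read on a median of 43 (WT) and 44 (KO) beads, and precision is limited by 1 array per group.

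Named genes are the 15 highest and 15 lowest detected on both arrays, up to 8 per direction detected on 1 array whose bound reaches 2-fold, the heart targets of miR-214, its host locus, sex-linked and fast fibre genes, and the 2 to 6 most different members of each list described, with reference markers. The comparison, the 43 lists and these rules were chosen with earlier results of these data known. Alternatives were other normalizations, background settings, probe summaries and detection filters. Leaving out the sex chromosomes and chromosome 1 was added after seeing the data.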

Additional observations from a re-analysis of the deposited data

Results flagged for a closer look

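By their normalized values, some genes at least 2-fold different at P14 were at least 2-fold different in the opposite direction in an older pair, and the difference between pairs was not tested. Atf3, a stress-induced transcription factor, was at -1.37 in P14 heart, 1.06 in adult heart and 2.24 in tibialis anterior, detected on both arrays of each pair. Scgb1a1, a secretory protein of airway cells, was at 1.32 at P14, detected on the KO array only at 97.0 against 51.8 (a bound of 1.86-fold, short of 2-fold), and at -1.15 in adult heart. Of 14 airway and lung markers on the array 5 were detected at P14, and the surfactant genes Sftpa1, Sftpb, Sftpc and Sftpd were detected on neither P14 array. Klk1b22 was at -1.46 at P14, 1.15 in adult heart and 1.72 in tibialis anterior, each time seen on 1 array of the pair. Its bounds were 1.86-fold, 1.58-fold and 1.69-fold in that order, so it passed 2-fold in none of them by the bound. Of the genes opposite in tibialis anterior and not in adult heart, Col8a1 was at 1.03 there and -1.10 at P14, detected on all 4 arrays. Zfp52 was at 1.46 there, detected on both arrays, and at -1.63 at P14, detected on WT only with a bound of 2.48-fold. Rab6b was at 1.62 there, detected on KO only with a bound of 1.87-fold, and at -1.11 at P14, detected on WT only with a bound of 2.04-fold. Klk1b22 and Rab6b were chosen after their values were seen.

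Probes without a single gene name entered no count of genes. Of 2626 such probes kept, 11 reached 2-fold above WT and 18 reached 2-fold below WT in the P14 KO heart, and they stay unnamed here.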

How the results depend on the processing

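The 24 higher genes at P14 became 46 with median centring, 11 without background correction, with an offset of 50 and with the authors' deposited processed values, 55 with probes in place of genes, and 14 without genes at least 8-fold brighter in WT tibialis anterior than in WT P14 heart, a choice that uses the P14 WT value. The 64 lower genes became 22 under those 3 background settings and 127 with probes. The other alternatives gave 19 to 31 higher and 45 to 80 lower genes. With median centring the split was 46 higher to 64 lower, and it moved the median of all genes by 0.08. The fast fibre count of 9 ranged from 6 (detected on both arrays) to 11. Over the 88 genes past 2-fold, the direction was kept in 856 of 856 values, but for many of these it could not change. The detection filters repeat the main value, a lower bound cannot change sign, and the authors' values nearly repeat those without background correction. Past 2-fold under every alternative that gave a value were 31 genes. Those 31 include the 11 higher genes Tnnc2, Pvalb, Atp2a1, Mylpf, Tnni2, Tnnt3, Actn3, Angptl4, Ucp3, Calr and Ptms, and 20 lower ones. With the background left in or a larger offset, dim genes have smaller differences by construction. Of 430 list medians under an alternative, 407 kept their sign, and the lists whose sign turned had main medians within 0.18 of 0. No paired analysis was possible because each group has 1 array and the replicate number pairs nothing. Each group has 1 array, so none could be left out, and depth is replaced by signal over background, which limits genes detected on 1 array to a bound.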

Other observations

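Several groups not described above held few differences at P14. Of 32 detected cell cycle genes 18 were above 0 and none passed 2-fold. Mcm6, a subunit of the replication helicase, was lowest of them (266 on the WT and 169.9 on the KO array, -0.90), and its 2 other probes differed by -0.11 and by -2.67, the second detected on WT only at 175 against 47.5. It was at -1.60 in the adult heart. Tk1, the thymidine kinase of S phase, gave 123 and 182 (0.65; other probe 0.57). Of 14 clock genes 7 were above 0, with Bhlhe40, a repressor of the clock, at 1208 and 697 (-1.03) and the nuclear receptor Nr1d2 at 383 and 243 (-0.89). Chac1, an enzyme that degrades glutathione and is induced by amino acid stress, gave 327 and 643 (0.93), while 15 detected genes of that response had a median of 0.02, which turned to -0.06 with the mean over all detected probes. Immediate early genes other than Atf3 stayed within 2-fold, with Egr1 at 2206 and 1660 (-0.63, scanner value 1660.0) and Zfp36 at 371 and 592 (0.61).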
